A study of Emberiza melanocephala with 4 samples.

Results

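RNA libraries titled liver were compared between a long-day (LD) and a short-day (SD) state in Emberiza melanocephala. This species, the black-headed bunting, is a bird that migrates with the seasons. The 2 libraries titled liver are 2 of the 4 in the series, and were taken by their titles, LD Li and SD Li; the other 2 are titled hypothalamus, LD Hy and SD Hy. All birds were caught in the wild, and every library was made from total RNA for pyrosequencing, a method that gives fewer and longer reads than current short-read machines. Neither age, sex, length of exposure nor the number of birds per library is stated in the labels. Both libraries titled liver carry the record "long day" for seasonal state, which contradicts the title SD Li, and both titled hypothalamus carry "short day", which contradicts the title LD Hy. Groups follow the titles. Each group is 1 library, so no difference has a replicate check, no error can be given and no test was made.

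Hepatocytes, the main cells of liver, make most plasma proteins, store and release glucose, and run the methyl-group, purine and amino acid pathways. In migratory birds, longer days are followed by feeding and fat deposition, in which liver takes part as the main site of fat synthesis. Neurons are known for other sets of genes, among them the fusion proteins of synaptic vesicles, the adhesion proteins of axons and dendrites, and the channels and receptors of excitable membranes. Liver tissue holds few neurons, so both sets bear on the tissue label.

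Values are FPKM as deposited, a measure of level per transcript length that in each file equals mean coverage times 1 constant (56.2 in LD and 48.1 in SD), summed here over the transcripts of a gene name. Beside them stand aligned bases, which are coverage multiplied by exon length, as a measure of how much sequence a value rests on. The library labelled LD liver named 183 genes and the library labelled SD liver 62. Together these were 222 genes, of which 23 stood in both, 160 only in LD and 39 only in SD. Over all 4 libraries, 278 genes were named. A gene that a file does not name is not a gene at 0: in the files, all 98 multi-exon genes named in LD and all 33 in SD had coverage in every exon, and assembled transcripts began at a mean coverage of 2.5 in both. Of the named genes, 87 in LD and 29 in SD are on at least 1 of 20 lists by function.

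The 2 libraries differed in how much of their sequence lay on named genes. LD held 17.8 and SD 20.8 aligned megabases, but named genes took 0.335 megabases in LD and 0.0693 in SD, or 1.88% and 0.333% of the aligned sequence of LD and SD. The median named gene rested on 650 aligned bases in LD and on 397 in SD. How far this contributes to the longer list of LD was not tested. Read counts are not given in the files, so no counting interval can be set, and 22 of the 183 genes in LD and 11 of the 62 in SD had under 150 aligned bases. Single-exon genes made up 46.4% of the named genes in LD and 46.8% in SD.

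The tissue label was checked against markers. Of 9 neuron markers, 4 were named in LD (SNAP25, GAP43, STMN2 and SLC32A1) and 0 in SD. Of 13 hepatocyte markers, LD named only APOA1, at 20.9 FPKM, and SD named only ONECUT1, at 11.1 FPKM. In SD an assembled transcript, described further on, overlapped APOA1. Albumin (ALB), transthyretin (TTR), transferrin (TF) and the fibrinogens (FGA, FGB, FGG) were named in neither library, although they are among the most abundant messages of liver. They were not named in the other 2 libraries either, and assembled transcripts could be matched only to genes named in at least 1 of the 4. Reference genes without a symbol could match no marker: LD had 248 reference identifiers for 183 names, and SD 86 for 62. Their absence by name therefore does not show that their RNA was absent. None of 5 oligodendrocyte, 4 endothelial or 5 erythrocyte markers was named in LD or SD. Of 6 astrocyte markers none was named, but an assembled transcript of LD lay over SPARC. The neuron markers go against the tissue title of the library labelled LD liver. The hepatocyte markers, with 1 gene named in LD and 1 in SD, do not set the 2 libraries apart by name. By name they lend little to the title of SD liver either. With 1 library a side, a difference in tissue and a difference in season cannot be told apart, nor can fewer cells of a type and less RNA per cell.

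**Figure D1:**
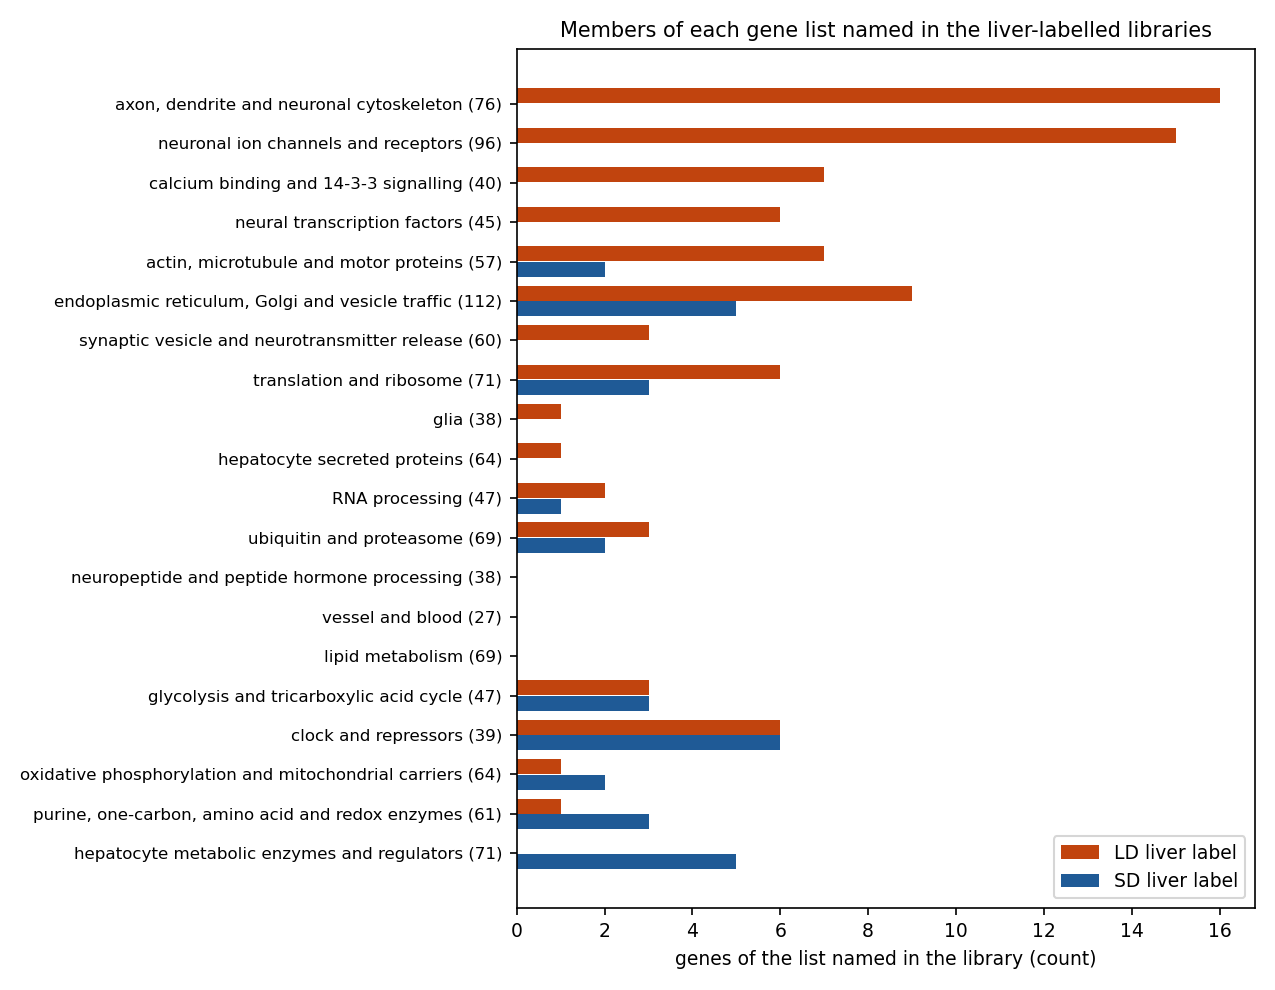
Bars count the genes of each list that were named in the library labelled LD liver (orange, upper bar) and in that labelled SD liver (blue, lower bar), with the size of the list in brackets. Lists are ordered by the count in LD minus that in SD. The list at the top, axon, dendrite and neuronal cytoskeleton, has 16 of 76 genes in LD and 0 in SD. Next come neuronal ion channels and receptors with 15 of 96 in LD and 0 in SD. Below these, lists of nerve cells and of general cell functions are mixed. The list at the bottom, hepatocyte metabolic enzymes and regulators, has 0 of 71 in LD and 5 in SD. All lists were set with earlier results of these data known.

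Every named gene of the neuronal lists stood on the LD side. Of 314 genes on 5 neuronal lists (synaptic vesicles, axon and dendrite, channels and receptors, neuropeptides, and neural transcription factors), 40 were named in LD and 0 in SD. They ranged in LD between 5.18 and 462 FPKM around a median of 34.2, and held 29.1% of the named sequence of that library. Since no SD value exists for any of them, no ratio was formed. Of the 40 genes, 28 have a single exon and 12 have more, while single-exon genes made up 46.4% of all genes named in LD. A read within a single-exon gene carries no splice junction. Beside the counts of 40 and 0, LD named 160 of the 222 genes alone, so a gene of any kind was more often found only there. Because the lists were chosen with earlier results of these data known, the counts describe these lists and are no independent check of the tissue.

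SNAP25, a protein that fuses synaptic vesicles with the nerve terminal, was the highest named gene of LD at 462 FPKM (collared flycatcher build FicAlb_1.4, scaffold JH603274.1, 2338212 to 2404309, minus strand). It rested on 30596 aligned bases and all of its 8 exons were covered, between a mean of 3.78 reads per base in exon 1 and 23.1 in exon 6. OLFM1, a secreted glycoprotein of neurons, had 277 FPKM over 6 covered exons. ATP6V1C1, a subunit of the proton pump that acidifies vesicles in neurons and other cells, had 209 FPKM over 13 covered exons. In each of these 3 genes the first exon was the shallowest. SLC32A1, the transporter that loads GABA and glycine into vesicles, was the third gene of the synaptic vesicle list, at 26.8 FPKM.

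CKB, the brain-type creatine kinase, had 137 FPKM by name and 366 when an assembled transcript that overlapped its exons was added. Of the other axon genes, LRRTM1, an organiser of synapses, had 112 FPKM, GPM6B, a membrane protein of neurons and glia, 87.1, and LINGO1, a brake on axon growth and myelination, 82.6. FLRT2, STMN2, SLITRK4, GAP43 and SLITRK2 had 53.8, 46.9, 40.2, 26.1 and 22.9 FPKM. The membrane proteins SLITRK1, LRRN3, RTN4R, LRRN1 and FLRT3, with leucine-rich repeats outside the cell, and BASP1, a protein of the growth cone, lay between 5.31 and 18.0 FPKM. Among these, BASP1 rested on 151, FLRT3 on 184 and LRRN1 on 266 aligned bases. Of the 16 axon genes, 11 have a single exon, so a read within them carries no splice junction.

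Of 96 neuronal channels and receptors, 15 were named in LD. The highest were S1PR1, the sphingosine-1-phosphate receptor of vessels and brain (111 FPKM), and HTR1B, a serotonin receptor (105 FPKM). GPR22 and SSTR1, an orphan receptor and a somatostatin receptor, had 70.3 and 58.6 FPKM, and the orphan receptor GPR27 had 56.0. The potassium channel subunits KCNA1, KCNS2 and KCNA2 had 39.8, 36.4 and 32.0 FPKM. GPR85, ADRA2C, CHRM3, DRD1, GPR12 and ADRA1D followed between 5.18 and 28.0 FPKM, and include an adrenergic (ADRA2C), a muscarinic (CHRM3) and a dopamine (DRD1) receptor. All but ADRA1D have a single exon. GPR12 rested on 153 aligned bases and DRD1 on 252.

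Of 45 neural transcription factors, 6 were named in LD and 0 in SD, beside 183 and 62 genes of any kind. SOX2, a factor of neural stem cells and glia, had 106 FPKM, ZBTB18, a repressor of the developing cortex, 91.3, and ZIC1, a factor of the dorsal nervous system, 38.1. NR2F2, which is also active in vessels and other tissues, had 25.3 FPKM, and the neurogenic factors NEUROD1 and NEUROD6 had 16.5 and 14.9 FPKM. No gene of the neuropeptide list was named in LD or SD. An assembled transcript of LD lay over CPE, the carboxypeptidase that trims peptide hormones, and gave 348 FPKM over 9486 aligned bases, with no counterpart in SD.

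The calcium-binding and 14-3-3 list had 7 of 40 genes in LD and 0 in SD. Of all 222 genes, LD alone named 160 and SD alone 39. YWHAH, a 14-3-3 adaptor abundant in brain, had 215 FPKM, and YWHAE, YWHAQ and YWHAZ had 93.6, 89.8 and 85.2 FPKM. GNB1, a subunit of heterotrimeric G proteins, had 171 FPKM, CALM3, a calmodulin gene, 136 FPKM by name and 346 with an assembled transcript added, and PVALB, parvalbumin, which buffers calcium in muscle and in some inhibitory neurons, 15.9 FPKM. Of the glia list, LD named GJA1, the gap-junction protein of astrocytes and other cells (57.2 FPKM), and SD named none. SPARC, a matrix glycoprotein, had 244 FPKM from an assembled transcript of 815 bases in LD. Calmodulins, 14-3-3 proteins, actins and tubulins have close relatives in the genome, so reads may be divided among them and these values are uncertain. The same holds for HIST2H2AB, a histone gene with 111 FPKM in LD, and C6orf62 had 123 FPKM there. Neither was named in SD.

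Most named genes of the hepatocyte lists stood on the other side, although the 13 hepatocyte markers gave 1 gene each in LD and SD. Of 135 genes on the 2 hepatocyte lists, 1 was named in LD (APOA1) and 5 in SD, among them AHCY, ADH5, ONECUT1 and CEBPB. Those 5 genes held 15.4% of the named sequence of SD, while APOA1 held 0.175% of that of LD. The 5 are among the 39 genes that SD named alone, and 4 of the 5 are multi-exon genes. AHCY and ADH5 also stand on the list of purine, one-carbon, amino acid and redox enzymes, so the count is not of genes particular to hepatocytes.

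AHCY, which hydrolyses S-adenosylhomocysteine in the methyl cycle, had 65.1 FPKM in SD over 4482 aligned bases and 9 covered exons. ADH5, an alcohol dehydrogenase that oxidises glutathione-bound formaldehyde, had 37.3 FPKM, also over 9 covered exons. ONECUT1, a homeobox factor needed for the development of bile ducts and pancreas, had 11.1 FPKM, and CEBPB, a leucine-zipper factor of the acute phase response, 10.8 FPKM. ONECUT1 rested on 827 and CEBPB on 184 aligned bases. None of these 4 genes was named in LD.

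**Figure D2:**
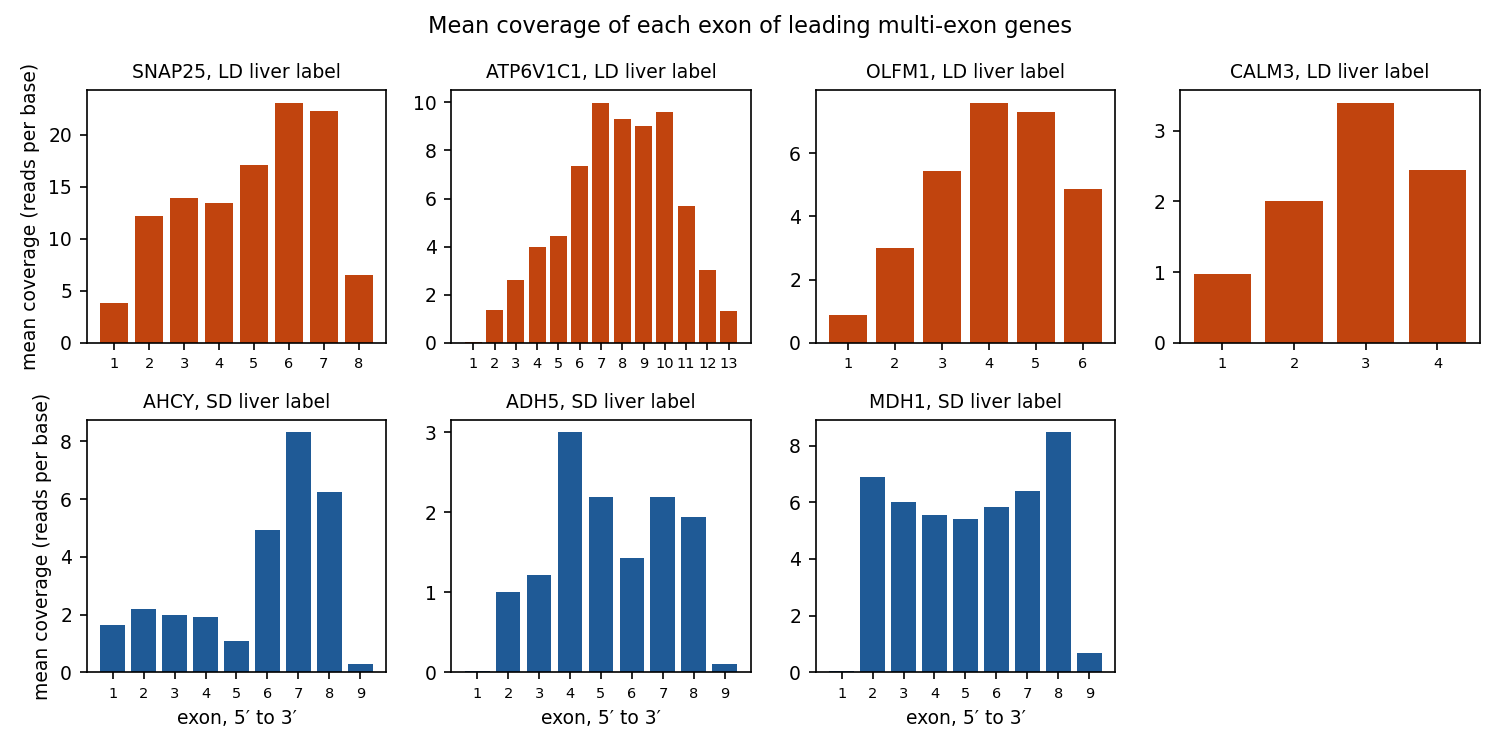
Each bar is the mean coverage of 1 exon, in reads per base, with exons in order of transcription; the upper row shows genes of the library labelled LD liver and the lower row genes of that labelled SD liver, and each panel has its own vertical scale. Coverage was deepest in exon 6 of SNAP25 (23.1) and exon 7 of ATP6V1C1 (9.99) in LD, and in exon 7 of AHCY (8.32) and exon 8 of MDH1 (8.48) in SD.

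Other genes among the 15 highest named only in SD had varied functions, and most of them are on none of the lists. PCBD1, which regenerates the cofactor of phenylalanine hydroxylase, had 30.7 FPKM, CYB5A, the cytochrome b5 that passes electrons to desaturases and cytochrome P450 enzymes, 23.6, and PGRMC1, a haem-binding protein of the endoplasmic reticulum, 16.3. PHB, a scaffold protein of the inner mitochondrial membrane, had 25.3 FPKM and RAB43, a GTPase of the Golgi, 31.3. CNBP, a nucleic-acid-binding protein, had 62.2 FPKM and RPLP0, a protein of the ribosomal stalk, 36.4. TMEM229B, KCTD21, YPEL1 and LSM3, a subunit of the splicing and decay complexes, lay between 18.0 and 33.2 FPKM. SNX12, a sorting nexin, was named only in SD (24.8 FPKM), but LD held an assembled transcript over it.

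The other genes named only in SD had 16.2 FPKM or less, from ZFAND5 down to COX1, a mitochondrially encoded oxidase subunit with 1.02 FPKM on 33 aligned bases. Some of them, picked after their values were seen, are known from nervous tissue although no list holds them. AMIGO2, a neuronal adhesion protein, had 1.48 FPKM, GMFB, a glia maturation factor, 7.81, and RGS9BP, an anchor of a retinal signalling protein, 14.5. The absence of neuronal genes from SD is therefore a statement about the lists.

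APOA1, which carries cholesterol in plasma as the chief apolipoprotein of HDL, was named only in LD, where the reference transcript of 1579 bases had 20.9 FPKM over 587 aligned bases (scaffold JH603405.1, 184244 to 186123, minus strand). In SD an assembled transcript of 892 bases overlapped the exons of APOA1 and had 655 FPKM over 12148 aligned bases. Its log2 ratio of LD to SD, formed with a pseudocount of 1 FPKM, was therefore -4.91. Per megabase of aligned sequence and without division by length, it had 33.0 bases in LD and 585 in SD, a log2 ratio of -4.11. The higher library was SD on both scales. By name alone this gene stood on the LD side. Every gene named in only one library was therefore searched for assembled transcripts of the other that overlapped its exons. Transcripts on the opposite strand were left out, and any with no strand assigned were kept.

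That search moved 4 genes into the shared set, which then held 27, with 8 at least 2-fold higher in LD (29.6%), 6 lower (22.2%) and 14 apart in either direction (51.9%). The 6 lower include GAPDH, whose sign depends on the scale. Per megabase of aligned sequence and without division by length, 10 of the 27 were at least 2-fold higher in LD (37.0%), 5 lower (18.5%) and 15 apart (55.6%). Beside APOA1 they were SNX12, with a log2 ratio of 2.83 (183 FPKM in LD and 24.8 in SD), GAPDH, a glycolytic enzyme, and EIF5, a translation initiation factor. GAPDH had 166 FPKM in LD from a transcript of 6021 bases and 451 FPKM in SD from one of 1170 bases, a log2 ratio of -1.43 that was 0.92 without division by length. EIF5 had 92.2 FPKM in LD and 123 in SD, a log2 ratio of -0.41 that was 2.24 without division by length, with transcripts of 3405 bases in LD and 534 in SD. No direction is given for GAPDH and EIF5, since it depends on the length of the transcript assembled. DDX5, an RNA helicase named only in LD (86.6 FPKM), encloses a feature of 124 bases, ENSFALG00000016045, that had 8.16 FPKM in LD and 28.5 in SD. PAICS, an enzyme of purine synthesis, had 143 FPKM in SD from an assembled transcript of 500 bases and was not listed in LD.

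**Figure D3:**
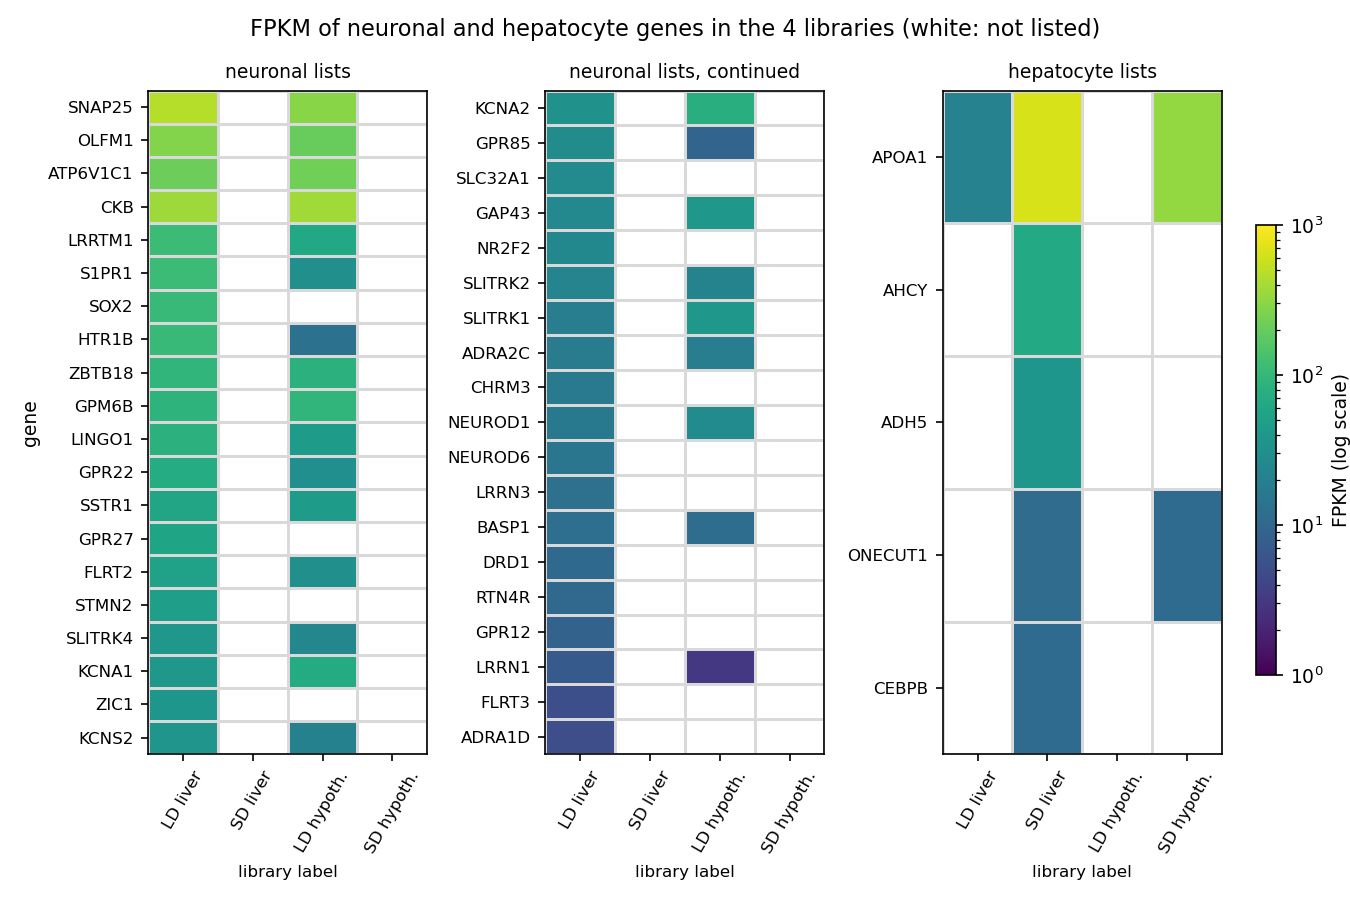
Colour gives FPKM on a log scale for genes of the neuronal lists named in the library labelled LD liver (left and middle) and for listed hepatocyte genes (right), in the libraries labelled LD liver, SD liver, LD hypothalamus and SD hypothalamus, with assembled transcripts added to each gene. White cells are genes not listed; the SD liver and SD hypothalamus columns are white for every neuronal gene shown, and APOA1 reaches 655 FPKM in SD liver.

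Some of these genes were also named in the libraries labelled hypothalamus. Of the 40 genes of the neuronal lists named in LD liver, 24 were also named in LD hypothalamus and 0 in SD hypothalamus. Of the 160 genes named in LD liver and not in SD liver, 65 (40.6%) were named in LD hypothalamus and 12 (7.50%) in SD hypothalamus, lists of 126 and 34 genes. The 39 genes of SD liver alone included 5 (12.8%) named in LD hypothalamus and 3 (7.69%) in SD hypothalamus, ONECUT1 among these 3 at 10.9 FPKM. APOA1 had 327 FPKM in SD hypothalamus and was not listed in LD hypothalamus. SD hypothalamus named 0 of 314 genes of the neuronal lists and 2 of 135 of the hepatocyte lists, which questions its tissue title too. It named only 34 genes in all, a gene not named is not a gene at 0, and the lists were chosen with earlier results known. These counts therefore cannot settle its tissue. The libraries differ in how many genes they named, and no test was made of the overlaps.

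The 23 genes named in both libraries allow a ratio on the same reference transcript. Of these, 7 were at least 2-fold higher in LD (30.4%) and 4 at least 2-fold lower (17.4%), together 47.8%, on the scale of log2(FPKM + 1), which understates the change of low genes. The median log2 ratio was 0.37. With the median ratio set to 1 the split was 5 higher and 7 lower, and on the deposited TPM scale 11 higher and 3 lower, so the direction of small ratios depends on the scaling. Those 2 scalings shift the median by -0.37 and by 0.25. None of the 23 genes is on a neuronal or hepatocyte list.

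**Figure D4:**
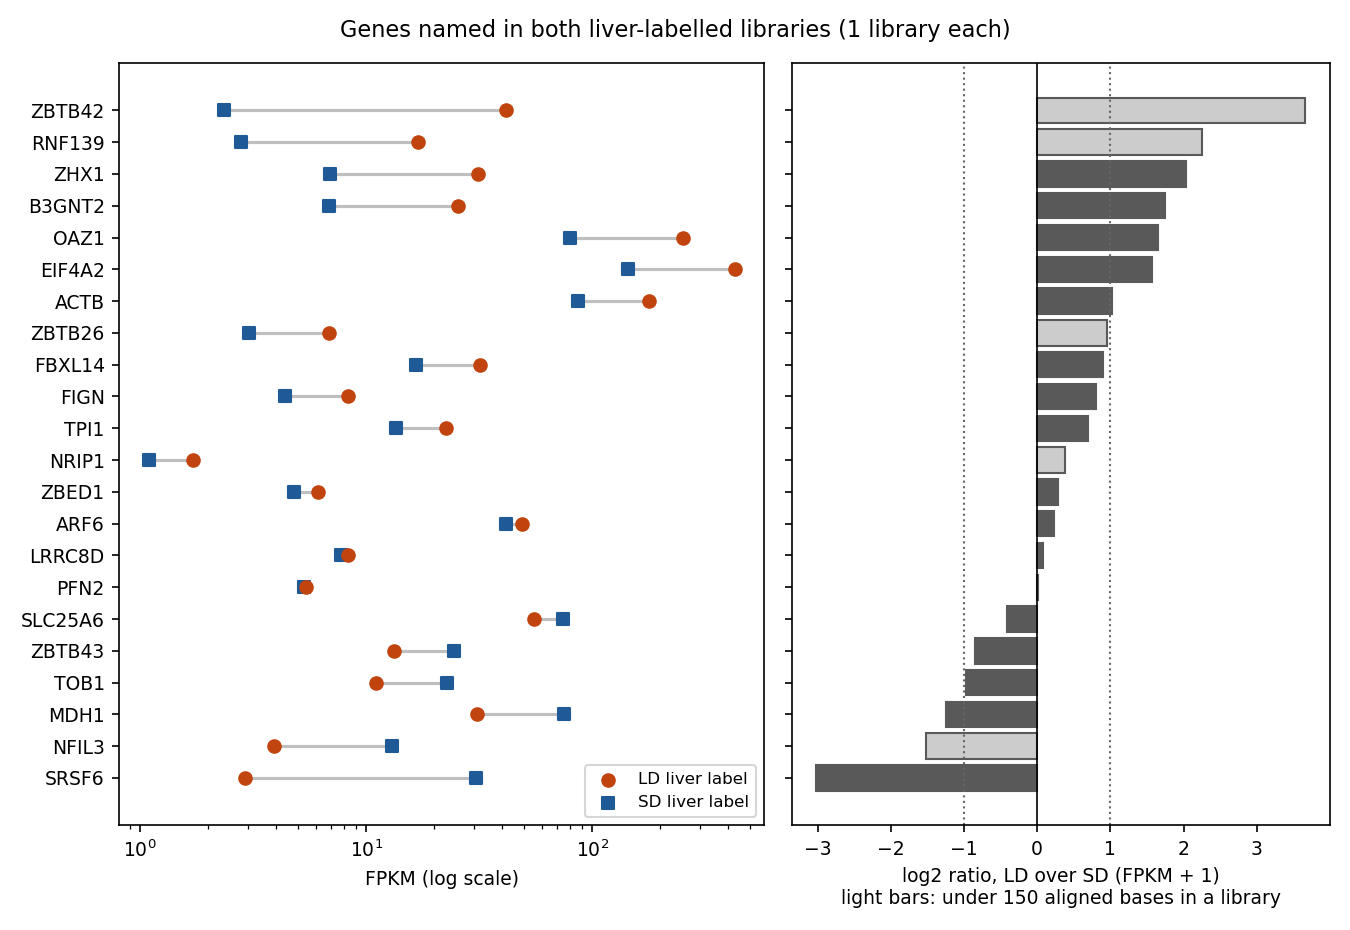
Left, FPKM on a log axis of genes named in both libraries, LD liver as circles and SD liver as squares; right, their log2 ratio of LD to SD with dotted lines at 2-fold and light bars where a library has under 150 aligned bases. EIF4A2 lies highest in both libraries and has a log2 ratio of 1.57, and SRSF6 has the lowest ratio at -3.01.

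Among metabolic genes, MDH1, the cytosolic malate dehydrogenase that shuttles reducing power to mitochondria, had 30.9 FPKM in LD and 74.9 in SD, over 2719 and 7705 aligned bases in LD and SD. Its log2 ratio was -1.25, and -0.89 on the TPM scale, where it is no longer 2-fold. TPI1, triosephosphate isomerase of glycolysis, had 22.6 FPKM in LD and 13.6 in SD (log2 ratio 0.69). SLC25A6, a carrier that exchanges ADP and ATP across the mitochondrial membrane, had 55.6 FPKM in LD and 74.6 in SD (-0.42, and -1.05 with the median ratio set to 1). OAZ1, the antizyme that restrains polyamine synthesis, had 253 FPKM in LD and 79.9 in SD, a log2 ratio of 1.65 that stayed above 2-fold under every alternative tried. Over 4 lists of energy and small-molecule metabolism, 5 of 241 genes were named in LD and 8 in SD, beside 183 and 62 genes of any kind. These held 9.82% of the named sequence in LD and 38.7% in SD, but that sequence was 0.335 megabases in LD and 0.0693 in SD. Their summed FPKM was 528 in LD and 422 in SD. Of the 4 such genes found in both, 1 was at least 2-fold higher in LD and 1 lower, around a median of 0.14. Over all 23 shared genes, 30.4% were higher and 17.4% lower. The list of lipid metabolism, 69 genes, had no named member in LD or SD. That list does not hold every such gene: SCD5, a fatty acid desaturase outside it, was named in LD.

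Secretory and vesicle genes were named in both libraries, 9 of 112 in LD and 5 in SD, beside 183 and 62 genes of any kind. ARF6, a GTPase of membrane recycling, had 48.8 FPKM in LD and 41.6 in SD (log2 ratio 0.23, and -0.41 with the median ratio set to 1), a difference under 2-fold in all alternatives tried. B3GNT2, a Golgi enzyme that extends sugar chains, had 25.4 FPKM in LD and 6.85 in SD (1.75). RAB11B, RAB5A, ARF1, RAB2A, RAB10, B3GALT2 and HPS6 were named only in LD. The first, RAB11B, a GTPase of recycling endosomes with 126 FPKM, was the highest, and HPS6, needed for pigment granules and other special lysosomes, the lowest with 1.68 FPKM. SD alone named SRP14 (13.0 FPKM), part of the particle that guides secretory proteins to the endoplasmic reticulum, and TMED5 (8.72 FPKM), a cargo protein of early secretory vesicles. The membrane-bound ubiquitin ligase RNF139 had 17.0 FPKM in LD and 2.81 in SD (2.24), the SD value resting on 102 aligned bases.

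Of the translation and RNA processing lists, 1 gene each was named in both libraries. EIF4A2, an RNA helicase of translation initiation and the highest shared gene in LD and SD, had 430 FPKM in LD and 144 in SD over 20530 and 8028 aligned bases in LD and SD. Its log2 ratio was 1.57, and 0.93 with the median ratio set to 1. SRSF6, a splicing factor, had 2.92 FPKM in LD and 30.7 in SD, a log2 ratio of -3.01 on 168 aligned bases in LD and 2067 in SD. Its mean coverage in LD was 0.167 reads per base in exon 2 and again in exon 3. Whether reads there were divided among several places was not tested. EIF4G2, PAIP2, EIF1 and the RNA-binding protein TARDBP were named only in LD, at 31.4, 21.7, 17.4 and 56.5 FPKM, and EIF4G2 reached 269 FPKM with an assembled transcript added.

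Cytoskeletal genes were 7 of 57 in LD and 2 in SD, beside 183 and 62 genes of any kind. ACTB, cytoskeletal actin, had 178 FPKM in LD and 87.0 in SD (log2 ratio 1.03), which falls under 2-fold with a pseudocount of 10 (0.96) and with the median ratio set to 1 (0.38), and its span encloses another reference feature. PFN2, a profilin that binds actin monomers, had 5.40 FPKM in LD and 5.32 in SD, on 58 and 67 aligned bases in LD and SD. TUBA1C, ACTG1, DSTN, DYNLL2 and CFL2, an alpha-tubulin, an actin, a pair of actin-severing proteins and a dynein light chain, were named only in LD, between 12.4 and 68.1 FPKM. In the ubiquitin list, 3 of 69 genes were named in LD and 2 in SD: beside RNF139, LD named UBE2K and TRIM13 (30.1 and 5.41 FPKM) and SD named UBE2G1 (15.7 FPKM).

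The clock and repressor list had more shared members than any other list. The lists were chosen with earlier results of these data known, so this rank is only a description of the list. Of 39 genes on the clock and repressor list, 6 were named in LD and 6 in SD, 5 of them in both, with a median log2 ratio of 0.37, the same as over all 23. ZBTB42, a zinc-finger protein, had 41.5 FPKM in LD and 2.36 in SD (3.66), the highest ratio, but its SD value rests on 70 aligned bases. ZHX1, a zinc-finger and homeobox repressor, had 31.3 FPKM in LD and 6.89 in SD (2.03) on 1462 and 376 aligned bases in LD and SD. NFIL3, a repressor in the circadian output pathway, had 3.93 FPKM in LD and 13.1 in SD (-1.51), on 96 aligned bases in LD. TOB1, an anti-proliferative protein, had 11.05 FPKM in LD and 22.7 in SD (-0.98), and NRIP1, a co-repressor of nuclear receptors that limits energy expenditure in mammals, 1.71 in LD and 1.09 in SD (0.37). ID2, an inhibitor of helix-loop-helix factors, stood only in LD (10.4 FPKM) and ZBED4, a zinc-finger protein, only in SD (1.34 FPKM).

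The remaining shared genes were within 2-fold on the main scale. ZBTB26, FBXL14 and FIGN, a zinc-finger protein, a ubiquitin-ligase subunit and a microtubule-severing enzyme, had log2 ratios of 0.96, 0.90 and 0.80. On the TPM scale these passed 2-fold, at 1.29, 1.26 and 1.14. ZBED1, LRRC8D, which forms part of the chloride channel opened by cell swelling, and ZBTB43 had 0.29, 0.08 and -0.84. With the median ratio set to 1, ZBTB43 passed 2-fold at -1.44. The signs of ZBED1 and LRRC8D turn with the median ratio set to 1 (-0.25 and -0.48), as does that of PFN2 (-0.51). Under 150 aligned bases stood behind 7 of the 23 genes in LD or SD, and 4 of these 7 are among the 11 at least 2-fold apart.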

How the data were processed

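The 4 libraries were made from total RNA for pyrosequencing, per the labels' protocols. The authors' deposited files hold 1 transcript assembly per library, which StringTie 1.3.3b built on trimmed, aligned reads with gene models of another songbird, the collared flycatcher (Ensembl 89, FicAlb_1.4), per the file headers. The aligner is not given in the sources used here, and coordinates are those of the flycatcher build. Reads that differ from the flycatcher sequence can be lost. Each transcript carries coverage, FPKM and TPM as deposited, and the score column of the deposited files is one constant, which was not used. No strand protocol is stated, so overlapping genes on opposite strands cannot be separated. A seeded simulation with known values was used to test the scripts.

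FPKM and coverage times exon length were summed per gene name with Python 3.11.15, and figures were drawn with matplotlib 3.10.9. Log2 ratios of FPKM plus 1 were formed for genes named in both libraries and called at 2-fold. Aligned megabases come from the ratio of FPKM to coverage, 56.2 in LD and 48.1 in SD. Only reference transcripts carry names. Assembled transcripts that shared 1 base or more with a gene's exons, on its strand or with no strand assigned, were therefore added. Only genes named in at least 1 of the 4 libraries could receive them. The addition of assembled transcripts was an alternative chosen after seeing the data. Named genes were the 12 highest and 12 lowest ratios, the 5 highest FPKM per library, the 15 highest named in only one library, and the members of 20 lists (1184 genes). The genes and lists were chosen with earlier results of these data known. Some genes that this rule takes in are counted but not reported here by name.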

Additional observations from a re-analysis of the deposited data

Results flagged for a closer look

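The ADP/ATP carrier SLC25A6 was the only one of the 4 genes named in all 4 libraries whose log2 ratio of LD to SD had opposite signs under the tissue labels, -0.42 between the libraries labelled liver and 0.85 between those labelled hypothalamus. Its FPKM was 55.6 in LD liver and 74.6 in SD liver, and 59.5 in LD hypothalamus and 32.5 in SD hypothalamus. The neuron markers go against the tissue title of LD liver. SD hypothalamus named 0 genes of the neuronal lists and 2 of the hepatocyte lists, which questions its title, but only 34 genes in all. Within either pair, tissue and season therefore cannot be told apart. Both ratios are within 2-fold, each rests on 1 library per group, and the difference was not tested.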

How the results depend on the processing

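Of the 11 genes at least 2-fold apart, 7 stayed so in the same direction under every alternative that gave a value; ACTB, EIF4A2, MDH1 and NFIL3 did not, and 7 of the other 12 passed 2-fold under some setting. No called ratio changed sign. Against 23 shared genes with 7 higher and 4 lower in LD, an FPKM of at least 10 in both left 10 genes (3 higher, 1 lower) and at least 150 aligned bases left 2 lower. Setting the median ratio to 1 gave 7 lower, TPM gave 11 higher, and identifiers without a symbol raised the shared genes to 35. Genes with 2 or more exons, an alternative added after seeing the data, were 8 shared (3 higher, 2 lower), 90 only in LD and 25 only in SD. Of the neuronal lists, 12 such genes were named in LD. A coverage of at least 2.5, also added, left 6 genes only in LD and 0 only in SD, with 0 genes of the hepatocyte lists in LD or SD. Of those 6, 3 are on the neuronal lists: SNAP25, OLFM1 and ATP6V1C1, of which ATP6V1C1 also acts in other cells. Restricting to the same reference transcript changed nothing, because all 23 shared it. The planned count of named genes from assembled transcripts gave no value, because no assembled transcript carries a name. No paired analysis was possible because each group has 1 library and no result comes from a test; for the same reason no library could be left out. Depth limits every statement on genes not listed.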

Other observations

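Several genes of signalling and metabolism outside the lists were named in the library labelled LD liver and were picked after their values were seen. TRAF3, an adaptor of immune receptors, and GNAQ, a G-protein subunit, had 55.5 and 42.4 FPKM. The receptors P2RY1, for ADP, and CHRM5, for acetylcholine, had 71.2 and 45.7 FPKM, and PCDH9, a protocadherin, and LRRC4C, a ligand of netrin-G at synapses, had 83.9 and 57.5. SCD5, a fatty acid desaturase, had 41.9 FPKM and STC2, a secreted glycoprotein, 6.65. None of these 8 genes was named in the library labelled SD liver. Of the liver-labelled libraries, SD alone named BMP4, a secreted growth factor (6.15 FPKM), KCNJ11, a subunit of the ATP-sensitive potassium channel (6.63 FPKM), and UFM1, a ubiquitin-like modifier (16.0 FPKM, on 84 aligned bases).

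Coverage within genes was uneven in both libraries. Of the multi-exon genes, the last exon was the deepest in 14 of 98 in LD and in 3 of 33 in SD, and the first exon in 15 of 98 in LD and in 2 of 33 in SD. Single-exon genes made up 70 of the 160 genes named only in LD, 14 of the 39 named only in SD and 15 of the 23 named in both.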
